A study of Homo sapiens with 4 samples.

Results

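The 10 genes described here encode NF-kB subunits (NFKB1, NFKB2 and RELB), inhibitors and ubiquitin ligases of the pathway (NFKBIA, TNFAIP3 and BIRC3), CXCL chemokines (CXCL1, CXCL2 and CXCL3) and the adhesion molecule ICAM1. They were chosen by gene symbol, and all 10 were found among the 19974 gene rows deposited for HCT116, an established human colon cancer cell line grown in DMEM with serum. HCT116 cells were transfected for 36 h with 100 nM of a control non-targeting siRNA (si-NC) or of siRNA against the long noncoding RNA LINC00152 (si-152), with 2 biological replicates per group and 1 RNA-seq library each. The cell line, medium and transfection were shared by both groups, so the controls carried an siRNA too. The comparison asks how the expression profile differed after LINC00152 suppression. The siRNAs against LINC00152 are not listed singly in the labels, both groups are of 1 cell line, and the level of LINC00152 was not analysed here, so the knockdown is taken from the labels.

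NF-kB transcription factors are dimers of Rel family proteins. In resting cells they are held in the cytoplasm by IkB proteins or by the ankyrin repeats of their own precursors. In the canonical arm, TNF or interleukin 1 receptors activate an IkB kinase, IkB is degraded, and dimers of RELA with the product of NFKB1 enter the nucleus. In the noncanonical arm, the kinase MAP3K14 drives processing of the NFKB2 precursor, which pairs with RELB. Many of the induced genes, among them NFKBIA and TNFAIP3, shut the pathway down again, and the CXCL chemokines recruit neutrophils to inflamed or malignant epithelium.

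The feature that these genes are known to share is the kappa B element, the DNA sequence bound by NF-kB, so the promoter windows that hold it are shown first. RefSeq promoters of GRCh38.p14, from 250 bases before to 50 bases after each annotated start, were used for 9 members (all but RELB) with 12 starts and were searched on both strands for the kappa B consensus. A match was found in 9 of the 12 promoters and in 8 of the 9 genes. Over all 35116 promoters of the same length, 5.91% held a match. The members are textbook NF-kB genes, so this share describes them and is no test. The 30-base windows are written 5′ to 3′ on the strand of the gene, with the bases of each match in capitals, for the match nearest to the start.
CXCL1: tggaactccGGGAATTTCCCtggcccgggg
CXCL2: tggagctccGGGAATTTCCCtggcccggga
CXCL3: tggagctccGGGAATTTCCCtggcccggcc
NFKB1: cgacgtcagtGGGAATTTCCagccaggaag
NFKBIA: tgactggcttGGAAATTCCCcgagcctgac
TNFAIP3: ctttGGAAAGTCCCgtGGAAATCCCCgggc
BIRC3: tattaccgctGGAGTTCCCCtaagtcctaa
NFKB2, start 2: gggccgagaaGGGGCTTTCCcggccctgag
NFKB2, start 3: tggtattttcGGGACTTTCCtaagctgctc

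The CXCL windows lie on chromosome 4 at chr4:73869305-73869334 (CXCL1, plus strand), chr4:74099253-74099282 (CXCL2, minus strand) and chr4:74038748-74038777 (CXCL3, minus strand). All 3 hold the same 10 bases, GGGAATTTCC, from position -79 (CXCL1 and CXCL3) or -78 (CXCL2) relative to the start. Because another C follows, the reverse strand matches too, shifted by a single base. CXCL1 and CXCL2 were identical at 28 of the 30 bases of this window, CXCL1 and CXCL3 at 27, and CXCL2 and CXCL3 at 28. Over the 250 bases before the start, aligned with gaps, 81.4% of positions were identical between CXCL1 and CXCL3, 73.3% between CXCL2 and CXCL3 and 71.4% between CXCL1 and CXCL2. These exact 10 bases were also present, on either strand, in the promoters of NFKB1 (chr4:102501300-102501329) and NFKBIA (chr14:35404811-35404840, where they lie on the opposite strand), and in 0.145% of all promoters.

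TNFAIP3 carried a pair of matches on the opposite strand, 2 bases apart (chr6:137867188-137867217). BIRC3 carried 2 as well, of which the nearer is shown (chr11:102317339-102317368) and the farther runs from position -199 to -190. NFKB2 held none at start 1, and matches at start 2 (chr10:102394490-102394519) and start 3 (chr10:102395674-102395703). The NFKB1 window shown is that of start 1, and NFKB1 held no match at start 2. ICAM1 held no match to the full consensus. Its window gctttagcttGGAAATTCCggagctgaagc (chr19:10270924-10270953) does hold the 9-base core GGAATTTCC on the opposite strand, which also lies within the windows of the 3 CXCL genes, NFKB1 and NFKBIA and occurs in 0.461% of all promoters. By GENCODE v29 the windows of CXCL1, NFKBIA and BIRC3 lie upstream of every annotated transcript of their gene, while the other windows overlap an annotated exon of their gene. A match is a description of the sequence, since binding was not measured.

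**Figure D1:**
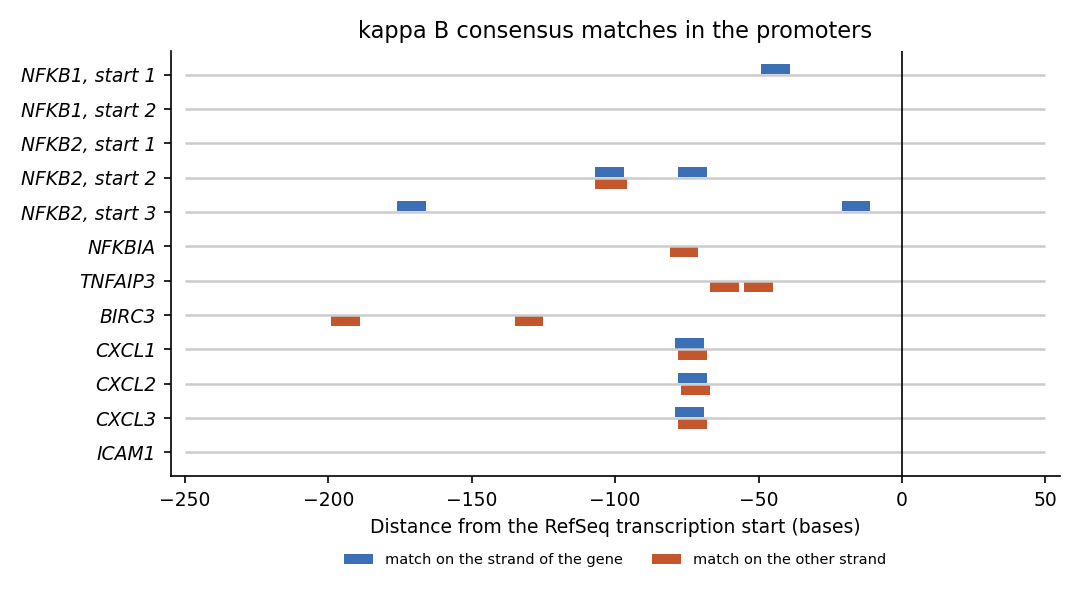
Position of each kappa B consensus match (bars) in the 300-base promoters of 9 members, in bases from the RefSeq transcription start (vertical line). Bars above a line match the strand of the gene and bars below it the other strand. The matches of CXCL1, CXCL2 and CXCL3 sit at nearly the same distance, from -79 to -68 over both strands.

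All 10 members were expressed in transfected HCT116 cells, and each passed the filter of at least 1 FPKM (fragments scaled by transcript length and by library size) in at least 2 libraries, as did 11222 genes in all. The deposited values name no unit and were taken as FPKM. On that reading they are scaled by length, and levels can be compared between genes. CXCL1 was the most abundant, with a mean of 125 FPKM over the 4 libraries, above 95.4% of the tested genes. NFKBIA followed at 101 FPKM, NFKB2 at 82.8, CXCL2 at 39.6, RELB at 32.2, CXCL3 at 21.9, BIRC3 at 17.3 and NFKB1 at 13.3 FPKM. ICAM1 (5.23 FPKM) and TNFAIP3 (4.75 FPKM) were lowest, above only 30.6% and 28.2% of the tested genes. In this order the ranges over libraries overlapped between CXCL1 and NFKBIA, NFKBIA and NFKB2, CXCL2 and RELB, BIRC3 and NFKB1, and ICAM1 and TNFAIP3. Within each library CXCL1 was nevertheless above NFKBIA and NFKBIA above NFKB2, whereas BIRC3 was above NFKB1 in 3 of 4 libraries and ICAM1 above TNFAIP3 in 3 of 4.

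**Figure D2:**
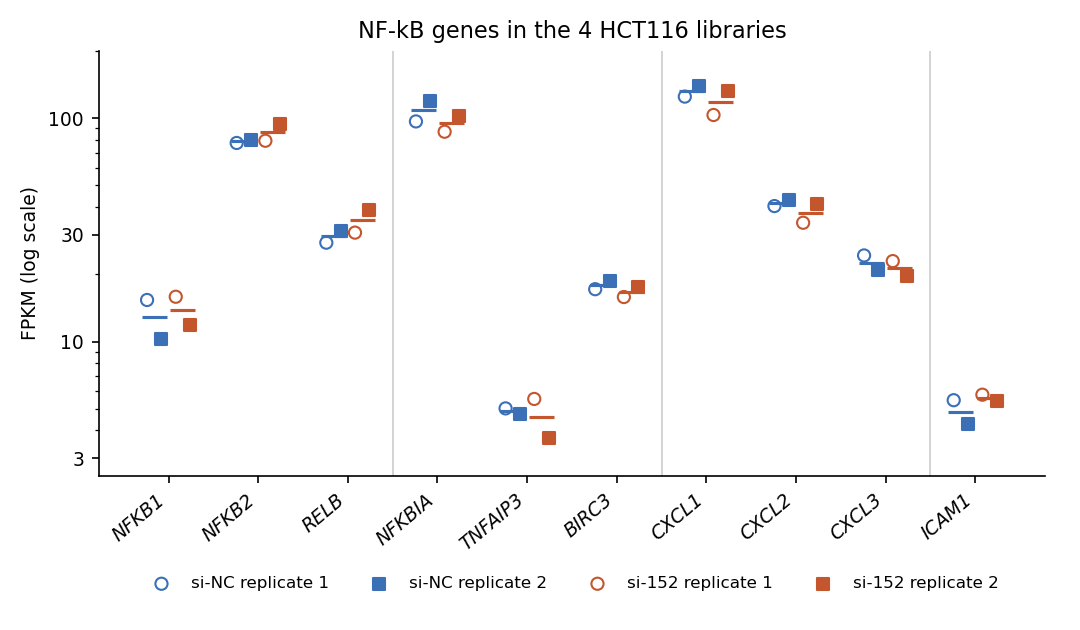
FPKM (log scale) of the 10 members in each library. Open circles are replicate 1, filled squares replicate 2, and short lines the group means. Levels span from 3.68 FPKM (TNFAIP3) to 139 FPKM (CXCL1), and the si-NC and si-152 points overlap for every gene.

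None of the 10 members differed between si-152 and si-NC beyond the spread between replicates. On log2(FPKM + 1), limma's moderated test with Benjamini-Hochberg adjustment over the 11222 genes called 0 of 10 (adjusted p = 1.00 for each after rounding), against 2 genes (0.0178%) called over all genes. The study took its p from DESeq and counted changed genes at a fold change above 1.5, with a fold above 2 for its pathway analysis. Its thresholds of fold change above 1.5 and unadjusted p under 0.05 were applied here to limma's values. They passed 0 of 10, against 1.66% of all genes, and that p alone passed 0, against 4.38%. The unadjusted p-values of the 10 members by limma lay between 0.243 and 0.690. The si-152 and si-NC ranges overlapped in all 10, so that 0 of 10 were separated, against 30.4% of all genes. With 2 against 2 libraries an exact two-sided permutation test of a single gene cannot go below 0.333. The 95% interval of the fold change, on this scale, reached lowest for NFKBIA (0.653 to 1.18) and highest for RELB (0.882 to 1.55). Each interval included no difference, and a difference inside a gene's own interval could not be told from none.

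**Figure D3:**
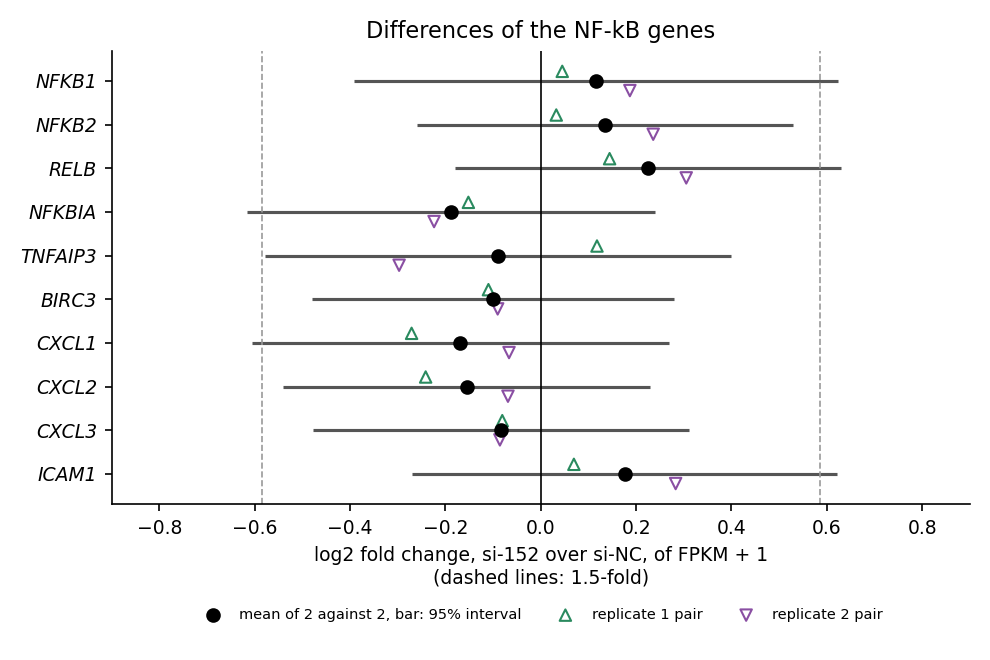
Log2 fold change of si-152 over si-NC for each member on the log2(FPKM + 1) scale. Black points with bars give limma's estimate with its 95% interval, and open triangles the replicate 1 pair (upward) and replicate 2 pair (downward). Every bar crosses 0, and TNFAIP3 is the member whose triangles fall on opposite sides of 0.

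Among the subunits, RELB, the partner of processed NFKB2 in the noncanonical arm (chromosome 19, 45001430 to 45038198), lay at 27.7 and 31.3 FPKM in si-NC (29.5 ± 2.58, SD, n = 2) and at 30.7 and 39.0 FPKM in si-152 (34.8 ± 5.84, SD, n = 2). The difference lay in the same direction in both same-numbered pairs, 0.14 and 0.31 on the log2 scale, but si-152 replicate 1 was below si-NC replicate 2. Its log2 fold change of 0.22 (standard error 0.18) was the largest in size of the 10 in the fit of all 4 libraries, and was 0.06 without si-152 replicate 2 and 0.14 without si-NC replicate 1. NFKB2 stood at 77.3 and 80.1 FPKM in si-NC and at 79.1 and 94.5 FPKM in si-152. Here si-152 replicate 2 stood above the other 3 libraries, which lay close together, and the log2 fold change was 0.13 (standard error 0.18). NFKB1, which encodes the precursor of the canonical DNA-binding subunit, lay at 15.3 and 10.3 FPKM in si-NC and at 15.9 and 11.8 FPKM in si-152. Its libraries sorted by replicate number, with replicate 1 the higher in each group, and the estimate was 0.12 on the log2 scale (standard error 0.23). With si-NC replicate 2 left out the value for NFKB1 turned to -0.15, and with si-152 replicate 1 left out to -0.08. NFKB2 exceeded NFKB1 in every library, by a ratio of FPKM of 5.04 and 7.79 in si-NC and 4.99 and 7.98 in si-152. This ratio thus differed between replicate 1 and replicate 2, and hardly between the groups.

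NFKBIA encodes IkB alpha, the inhibitor that holds the canonical dimer in the cytoplasm and is itself an early NF-kB target. It stood at 96.6 and 119.7 FPKM in si-NC (108 ± 16.3, SD, n = 2) and at 86.8 and 102 FPKM in si-152 (94.6 ± 11.0, SD, n = 2). Both pairs were lower in si-152, by -0.15 and -0.22 on the log2 scale, but the groups overlapped, and the log2 fold change of -0.19 had a standard error of 0.19. TNFAIP3, a ubiquitin-editing enzyme that ends signaling at TNF receptors, lay at 5.02 and 4.75 FPKM in si-NC and at 5.53 and 3.68 FPKM in si-152. The si-152 libraries lay on either side of the si-NC libraries, so the pairs went opposite ways (0.12 and -0.30). A log2 fold change of -0.09 (standard error 0.22) was estimated, and 0.15 with si-152 replicate 2 left out. BIRC3, a ubiquitin ligase of the TNF receptor complex that also restrains MAP3K14, stood at 17.1 and 18.7 FPKM in si-NC and at 15.8 and 17.5 FPKM in si-152. The pair differences of BIRC3 were alike, at -0.11 and -0.09, and its log2 fold change was -0.10 (standard error 0.17).

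The chemokine genes CXCL1, CXCL2 and CXCL3 lie in a cluster on chromosome 4 (GRCh38, GENCODE v29), from 73869393 to 73871242, from 74097035 to 74099293 and from 74036589 to 74038807. Their products are ligands of the neutrophil receptor CXCR2. CXCL1 lay at 125 and 139 FPKM in si-NC (132 ± 10.1, SD, n = 2) and at 103 and 133 FPKM in si-152 (118 ± 20.9, SD, n = 2). Here si-152 replicate 1 was the lowest library and the other 3 were closer together. The pair differences of CXCL1 were -0.27 and -0.07, its log2 fold change was -0.17 (standard error 0.20), and this turned to 0.0114 without si-152 replicate 1. CXCL2 stood at 40.4 and 43.1 FPKM in si-NC and at 33.998 and 41.1 FPKM in si-152, with the same order of libraries as CXCL1 and a log2 fold change of -0.16 (standard error 0.17). CXCL3 lay at 24.3 and 20.8 FPKM in si-NC and at 22.9 and 19.6 FPKM in si-152. Unlike CXCL1 and CXCL2 it was higher in replicate 1 than in replicate 2 of each group, and its log2 fold change of -0.08 (standard error 0.18) turned to 0.0227 without si-NC replicate 1 and to 0.0252 without si-152 replicate 2.

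The CXCL1, CXCL2 and CXCL3 levels summed to 189 and 203 FPKM in si-NC and to 160.1 and 193 FPKM in si-152. The share of CXCL2 in this sum varied little, at 21.3%, 21.3%, 21.2% and 21.2% in si-NC replicates 1 and 2 and si-152 replicates 1 and 2. The share of CXCL3 was 12.8% and 14.3% in the replicate 1 libraries and 10.3% and 10.1% in the replicate 2 libraries of si-NC and si-152. The genes are close paralogs, and of the 50-base windows in their GENCODE v29 transcripts, 4.8% (CXCL1), 12.5% (CXCL2) and 6.0% (CXCL3) occur in a transcript of one of the other two. The way reads from such windows were assigned is not given in the sources used here, so the split between these genes is uncertain.

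ICAM1 encodes the endothelial and epithelial ligand of leukocyte integrins. It stood at 5.46 and 4.26 FPKM in si-NC (4.86 ± 0.849, SD, n = 2) and at 5.78 and 5.40 FPKM in si-152 (5.59 ± 0.269, SD, n = 2). Here si-NC replicate 2 was the lowest and the other 3 libraries were close together. Both pairs were higher in si-152 (0.07 and 0.28), and the log2 fold change was 0.18 (standard error 0.20).

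By direction alone, the 4 genes NFKB1, NFKB2, RELB and ICAM1 were higher in si-152 in both pairs, against 35.6% of all tested genes. The 5 genes NFKBIA, BIRC3, CXCL1, CXCL2 and CXCL3 were lower in both, against 27.3%, and TNFAIP3 was mixed. By the fitted log2 fold change 4 of 10 were above 0, against 54.2% of all tested genes, and 6 below, against 45.8%. These 9 of 10 members with the same direction in both pairs compare with 63% of all tested genes. The median log2 fold change of the members was -0.09, against 0.02 over all tested genes. All 20 pair signs were kept under size factors and under quantile normalization, but some values moved toward 0 and others away from it. Under quantile normalization the first pair of NFKBIA went from -0.15 to -0.0156 and that of CXCL3 from -0.08 to -0.0165, and the log2 fold change of CXCL1 went from -0.17 to -0.09. The first pair of NFKB2 went the other way, from 0.03 to 0.14, as did that of RELB, from 0.14 to 0.23. Under size factors the second pair of NFKBIA went from -0.22 to -0.30. For each of the 10 members the mean difference between replicate 2 and replicate 1, taken over the groups, was larger in size than the difference between si-152 and si-NC, as it was for 63.1% of all tested genes. The first principal component of the libraries, with 54.4% of the variance, separated the replicate numbers, and the second, with 28.9%, separated si-152 from si-NC. On the first, si-152 replicate 1 stood at -22.8, si-NC replicate 1 at -8.00, si-152 replicate 2 at 8.21 and si-NC replicate 2 at 22.6. This is also the order of the FPKM summed over all genes, and the groups differed on this component within each replicate number. In 4 members, NFKBIA, BIRC3, CXCL1 and CXCL2, picked out after their values were seen, the libraries stood in the same order as the FPKM summed over all genes (si-152 replicate 1, si-NC replicate 1, si-152 replicate 2, si-NC replicate 2), which held for 7.77% of all tested genes, and the part of the sums in these levels was not tested. In bulk RNA, fewer cells expressing a gene and less RNA per cell cannot be told apart.

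The other genes of the pathway were described from a hand-written list of 116 genes, of which 82 were tested and 34 did not pass the filter. Of those 34, 9 were listed at exactly 0 in all 4 libraries, which is given only as a listed value. Limma with adjustment over all genes called 0 of the 82, and an unadjusted p under 0.05 was reached by 5 (6.10%), against 4.38% of all genes. Of these, 2 were higher and 3 lower, against 1.89% and 2.5% of all genes in those directions. The median log2 fold change of the 82 was -0.01. All 26 adaptors, kinases and ubiquitin ligases passed the filter, 15 of them higher and 11 lower, with a median of 0.05. The most abundant of them was RBCK1, a subunit of the linear ubiquitin chain assembly complex, at 160.3 and 178 FPKM in si-NC and at 187 and 221 FPKM in si-152 (log2 fold change 0.27, standard error 0.20). Both si-152 libraries lay above both si-NC libraries for RBCK1, as they did for 16.5% of all tested genes.

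**Figure D4:**
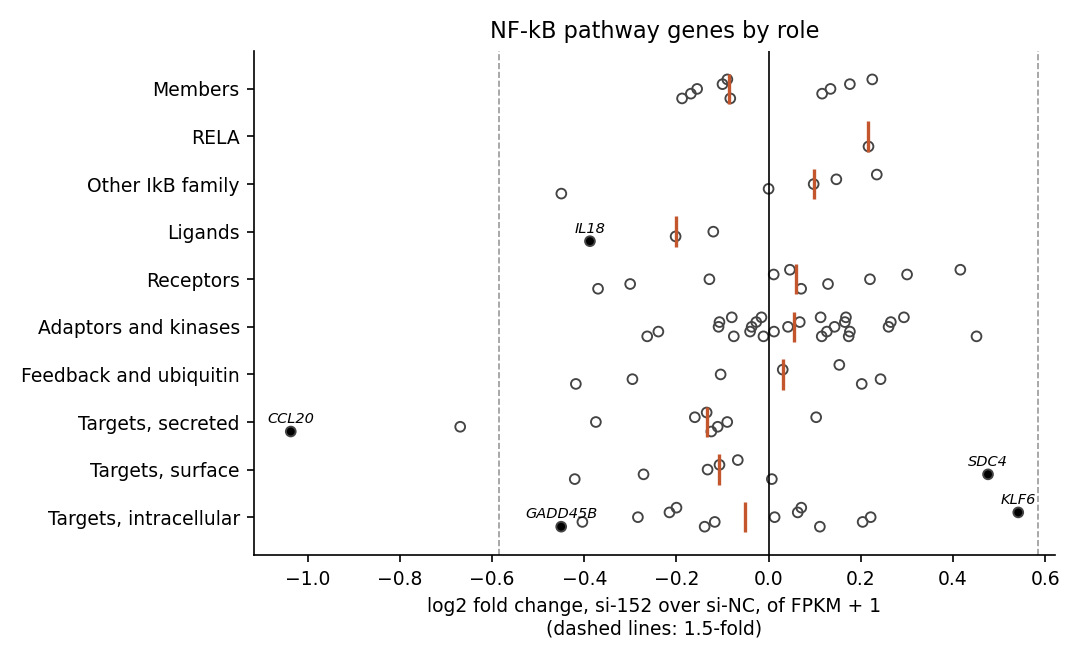
Log2 fold change of si-152 over si-NC, on the log2(FPKM + 1) scale, for the 10 members and the 82 tested pathway genes by role. Each point is a gene, filled where the unadjusted p was under 0.05, and red lines are medians. CCL20 is the gene beyond 1.5-fold among the filled points, at -1.04.

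Of the rest of the Rel family, RELA, the transactivating subunit of the canonical dimer, lay at 26.7 and 22.8 FPKM in si-NC and at 30.8 and 27.0 FPKM in si-152. Its si-152 libraries lay just above its si-NC libraries, as in 16.5% of all tested genes. The log2 fold change of RELA was 0.22 (standard error 0.17, unadjusted p = 0.240 by limma). The ratio of RELB to RELA was 1.04 and 1.37 in si-NC and 1.00 and 1.44 in si-152, again set apart by replicate number. REL was between 0.241 and 1.09 FPKM and was not tested. Among the IkB proteins, NFKBIE stood at 11.9 and 12.3 FPKM in si-NC and at 7.12 and 10.3 FPKM in si-152, which gave -0.45 on the log2 scale (standard error 0.20, unadjusted p = 0.0542 by limma). Its si-152 libraries both lay below its si-NC libraries, as in 13.9% of all tested genes. BCL3, a nuclear IkB protein that works with the NFKB2 and NFKB1 products, lay at 24.2 and 20.0 FPKM in si-NC and at 28.1 and 24.2 FPKM in si-152, with overlapping groups. NFKBIZ and NFKBID had log2 fold changes of -0.00 and 0.15, with overlapping groups. NFKBIB stood at 1.02 and 6.67 FPKM in si-NC and at 5.13 and 1.89 FPKM in si-152, so that its replicates differed by more than its groups did.

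Of 12 ligand genes 3 were tested, and the other 9 were under 1 FPKM in every library. IL18, a cytokine made by intestinal epithelium, was the most abundant, at 79.8 and 84.0 FPKM in si-NC and at 57.5 and 67.6 FPKM in si-152 (log2 fold change -0.39, standard error 0.17, unadjusted p = 0.0496 by limma). This p was 0.0505 with a pseudocount of 0.1, 0.0633 with size factors and 0.0643 without the variance trend. When 1 library was left out, the log2 fold change of IL18 ranged from -0.50 (without si-152 replicate 2) to -0.27 (without si-152 replicate 1). TNF, LTA and LTB were listed at exactly 0 in all 4 libraries. They lie in the major histocompatibility complex on chromosome 6, where (by RefSeq positions) 41.8% of 158 protein-coding genes were listed at 0 throughout, against 19.5% of 17755 genes elsewhere. LSM2, MRPS18B and NELFE, genes that most cells express, were among those zeros, so the zeros of TNF, LTA and LTB are given only as listed values. Of 18 receptor genes, 10 were tested. TNFRSF12A, the receptor of the ligand TNFSF12 and an activator of the noncanonical arm, was the most abundant, at 261 and 298 FPKM in si-NC and at 356 and 389 FPKM in si-152. Its si-152 libraries lay above its si-NC libraries, as in 16.5% of all tested genes. The log2 fold change of TNFRSF12A was 0.42 (standard error 0.21, unadjusted p = 0.0790 by limma).

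The 7 feedback and ubiquitin genes had a median log2 fold change of 0.03, 4 higher and 3 lower, and TAX1BP1, an adaptor of TNFAIP3, was the most abundant with a log2 fold change of 0.24 (standard error 0.17). Of 46 further target genes 30 were tested, 10 higher and 20 lower (66.7% lower, against 45.8% of all tested genes), with a median of -0.12. In 17 of the 30 (56.7%) si-152 was lower in both pairs, against 27.3% of all tested genes, and in 11 (36.7%) both si-152 libraries lay below both si-NC libraries, against 13.9%. No test of the list was made. It was written by hand with earlier results of these data known, so these shares only describe it. Among secreted products 8 of 9 were lower, among surface proteins 5 of 7, and among intracellular targets 7 of 14. LCN2, an iron-sequestering secreted protein, was the most abundant of them, at 375 and 600.2 FPKM in si-NC and at 276 and 719 FPKM in si-152. Its replicates differed by more than its groups.

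CCL20, a chemokine that attracts cells bearing CCR6 to the gut epithelium, had the largest difference of the list in the fit of all 4 libraries. It lay at 38.9 and 50.2 FPKM in si-NC (44.5 ± 7.99, SD, n = 2) and at 15.96 and 27.6 FPKM in si-152 (21.8 ± 8.23, SD, n = 2). Both si-152 libraries lay below both si-NC libraries, as in 13.9% of all tested genes, and the pairs gave -1.23 and -0.84. Its log2 fold change was -1.04 (standard error 0.25, unadjusted p = 0.00214, adjusted p = 0.595 by limma), and it was the 1 pathway gene past the thresholds on unadjusted p and fold, where 1.06% of all genes were lower. It did not pass adjustment over all genes. Left-out libraries moved it between -1.41 (without si-152 replicate 2) and -0.66 (without si-152 replicate 1). With 1 library left out, which leaves a group of 1 assumed to vary like the other, its adjusted p by limma was under 0.05 in 2 of 4 fits, at 3.42e-06 without si-152 replicate 2 and 0.000675 without si-NC replicate 1, and above it in the other two, at 0.117 without si-NC replicate 2 and 0.646 without si-152 replicate 1. CCL20 is among the 27 of 94 matched pathway genes whose promoters held a kappa B consensus match, against 1937 of all 27305 genes. The list was written from NF-kB pathway genes, so this share describes it and is no test. CXCL8, the chromosome 4 neighbour of the CXCL members and named here after its values were seen, stood at 73.6 and 59.3 FPKM in si-NC and at 71.5 and 52.2 FPKM in si-152, so that its groups overlapped.

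The other targets with an unadjusted p under 0.05 by limma were GADD45B, a stress-response regulator of MAP kinases, SDC4, a heparan sulfate proteoglycan, and KLF6, a zinc finger transcription factor. GADD45B lay at 21.5 and 25.5 FPKM in si-NC and at 15.1 and 18.8 FPKM in si-152 (log2 fold change -0.45, standard error 0.18). SDC4 stood at 97.8 and 97.1 FPKM in si-NC and at 143 and 129 FPKM in si-152 (0.48, standard error 0.17), and KLF6 at 19.2 and 13.97 FPKM in si-NC and at 29.8 and 19.8 FPKM in si-152 (0.54, standard error 0.23). For KLF6 limma's unadjusted p was above 0.05 without the filter (0.0993), under quantile normalization (0.0561) and without the variance trend (0.0537). Its log2 fold change was 0.33 without si-NC replicate 2 and 0.26 without si-152 replicate 1. The unadjusted p of GADD45B was above 0.05 without si-NC replicate 2 and without si-152 replicate 1, and that of SDC4 in each fit that left out 1 library except the one without si-152 replicate 2. For each of the 3 genes the groups did not overlap, as in 30.4% of all tested genes. The 3 were picked by their unadjusted p, which favours groups that do not overlap. Their adjusted p-values over all genes rounded to 1.00. TNFAIP2, the most abundant intracellular target, lay at 119 and 108 FPKM in si-NC and at 96.6 and 100.4 FPKM in si-152 (-0.20, standard error 0.17).

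The genes whose 4 values, centred on the gene mean in log2, were most like those of NFKBIA were RPL22L1, DTD1 and CISH, with root mean square differences of 0.00798, 0.0121 and 0.0146 among 11221 genes compared. With 4 libraries, 886 genes lay within 0.1 of NFKBIA, so this likeness is loose.

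The label of the cells was checked against markers. Of 10 colon epithelium markers 6 (EPCAM, CDH1, KRT8, KRT18, KRT19 and CDX2) were above 1 FPKM in every library. KRT20, CDX1 and LGALS4, markers of differentiated colon epithelium, were listed at 0 in all of them, and VIL1, of the brush border, was listed at 0 in 3 libraries and at 0.0567 FPKM in si-NC replicate 2. The 10 markers summed to 3026 and 3529 FPKM in si-NC and to 2386 and 2972 FPKM in si-152. Both si-152 sums thus lay below both si-NC sums. The largest terms were KRT8, KRT18 and KRT19. For KRT8 and KRT18 both si-152 libraries lay below both si-NC libraries, as in 13.9% of all tested genes. KRT19, EPCAM, CDH1 and CDX2 overlapped between the groups. The part of the lower sums in the levels above was not tested. Of 7 leukocyte markers CD68 alone, and of 7 fibroblast markers COL1A1 alone, was at or above 1 FPKM in every library, PTPRC, COL1A2 and DCN were listed at 0, and none of the 5 endothelial markers reached 1 FPKM. The summed leukocyte markers were at 3.43 and 3.24 FPKM in si-NC and at 3.53 and 3.96 FPKM in si-152. The FPKM of all genes summed to between 424754 and 534311 per library, with 14589 to 14686 genes above 0.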

How the data were processed

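Each of the 4 libraries has its own table of gene symbols and values, in which no unit is named. The deposited values were taken as FPKM from their decimals, exact zeros and unequal sums. The submitters' processing notes list Trimmomatic, TopHat, HISAT2, HTSeq and DESeq with the build GRCh38, without role or version, and the tool that made the values is not given in the sources used here. The depth per library is unknown: among 1039 genes with low values no more than 3.37% shared a common ratio between libraries, so whole reads could not be recovered and no counting error is given.

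Log2(FPKM + 1) was tested without further scaling by limma (version 3.58.1, R 4.3.3), with its mean-variance trend and unpaired as in the study, for genes that reached 1 FPKM in 2 or more libraries, and adjusted by Benjamini-Hochberg over all of them. The fit was tested on simulated data with known changes. Those data were drawn without differences between replicate numbers, so they do not show how the fit handles such differences. A call is an adjusted p under 0.05, and the thresholds of the study (unadjusted p under 0.05, fold above 1.5) are given beside it. A fold change on this scale understates that of low genes. The members and gene lists were chosen with earlier results of these data known. Pathway genes were named when their unadjusted p was under 0.05, when they belong to the Rel or IkB families or when they had the highest mean of their role, beside the 3 genes most like NFKBIA. Date-like symbols (28) and repeated symbols (2) touched no member. Promoters were taken from RefSeq and gene positions from GENCODE v29, and Python 3.11.15 with pandas 2.3.3 was used. Alternatives were the pseudocount, filter, scaling, variance trend, replicate block and each library left out.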

Additional observations from a re-analysis of the deposited data

How the results depend on the processing

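The 10 NF-kB members gave 0 calls by either rule under each of the 11 alternatives, with a smallest unadjusted p of 0.0731 and a smallest adjusted p of 0.342. Of 110 member values, 104 kept their direction. The 6 that reversed did so with a library left out: NFKB1 at -0.15 (without si-NC replicate 2) and -0.08 (without si-152 replicate 1), TNFAIP3 at 0.15 (without si-152 replicate 2), CXCL1 at 0.0114 (without si-152 replicate 1) and CXCL3 at 0.0227 (without si-NC replicate 1) and 0.0252 (without si-152 replicate 2). Over the 4 fits that lack 1 library the values ran from -0.15 to 0.38 for NFKB1, -0.33 to 0.15 for TNFAIP3, -0.35 to 0.0114 for CXCL1 and -0.19 to 0.0252 for CXCL3. The other 6 kept their direction but also moved by over 1.5 times, from 0.00764 to 0.26 for NFKB2, 0.06 to 0.39 for RELB, -0.34 to -0.03 for NFKBIA, -0.17 to -0.03 for BIRC3, -0.29 to -0.02 for CXCL2 and 0.03 to 0.32 for ICAM1.

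Same-numbered libraries deviated together from their group means (r = 0.52 across genes), but with 2 pairs and no shared batch in the labels the replicate number was not taken as a pairing. With the number as a replicate block, 78 genes were called in place of 2, 31 higher and 47 lower. Among pathway genes 1 was called at an adjusted p under 0.05 (CCL20, adjusted p = 0.0139 by limma). At the thresholds on unadjusted p and fold, 2 pathway genes passed in place of 1, against 209 of all 11222 genes in place of 186. The block called 0 members.

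Over all genes, the pseudocount of 0.1, no filter, size factors, quantile normalization and no trend each gave 1 adjusted call and the filter of 1 FPKM in every library gave 0. With a library left out, which leaves a group of 1 assumed to vary like the other, adjusted calls ranged from 45 to 78 and calls on unadjusted p and fold from 242 to 546, against 186. Pathway genes then gave 0 to 2 adjusted calls and 2 to 9 on unadjusted p and fold. The adjusted calls without si-NC replicate 1 or without si-152 replicate 2 were CCL20 (log2 fold change -1.22 and -1.41) and SAA1 (-1.33 and -1.75). SAA1 was named after its values were seen. It stood at 10.1 and 26.7 FPKM in si-NC and at 4.22 and 22.3 FPKM in si-152, so that its groups overlapped. In the fit of all 4 libraries its log2 fold change was -0.67 (standard error 0.60, unadjusted p = 0.295 by limma). The replicates of SAA1 differed by more than its groups. The cause of these shifts between fits was not tested.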
